A study of Mus musculus with 20 samples.

Results

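The effect of GYY4137 was measured in all 20 tumours of the study: the 10 from mice given GYY4137 were set against the 10 from mice given vehicle, with the antibody given beside it as a covariate. GYY4137 is a compound that releases hydrogen sulfide slowly. Every mouse carried a kidney tumour of the MSRT1 line, which the labels give as renal medullary carcinoma, and every mouse received an antibody, either control IgG or anti-PD1. The groups were vehicle with IgG (Veh_IgG), GYY4137 with IgG (GYY_IgG), vehicle with anti-PD1 (Veh_PD1) and GYY4137 with anti-PD1 (GYY_PD1, the combination), with 5 bulk RNA libraries, labelled as biological replicates, in each. Doses, schedules, host strain, sex and age are not given in the sources used here, and MSRT1 is a single line, so the libraries replicate the treatment and not the tumour. Of 34234 genes in the table, 11673 nuclear protein-coding genes with at least 1 TPM (transcripts per 1000000) in at least 5 libraries were tested. Levels below are TPM rescaled so that the nuclear protein-coding genes of a library sum to 1000000, and differences are GYY4137 minus vehicle on the log2(rescaled TPM + 1) scale, which understates changes of low genes. The arms, GYY_IgG against Veh_IgG and GYY_PD1 against Veh_PD1, share no library, and a gene is described here only where its difference has the same sign in both arms, unless the text says otherwise.

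Hydrogen sulfide is a gas made in cells from cysteine and homocysteine by the enzymes Cbs, Cth and Mpst, and it is cleared in mitochondria by a chain that starts with the quinone reductase Sqor. At low levels it feeds electrons into the respiratory chain and at higher levels it blocks cytochrome c oxidase, and it also relaxes vessels and modifies cysteine residues of proteins. Interferon gamma, released by T cells and natural killer cells, acts on genes that carry a short palindrome called GAS, while type I interferons act mainly on genes that carry a motif called ISRE. Both programmes raise antigen presentation and chemokines in tumours.

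Libraries differed in composition within and between groups, and the part of this in the results was tested only through the alternatives given below. The 13 gene models that resemble mouse major satellite, the tandem repeat next to centromeres, held 38.5% ± 24.9 of deposited TPM in GYY4137 tumours and 19.8% ± 21.2 in vehicle tumours (SD, n = 10). This share ranged from 5.86% to 83.4% with GYY4137 and from 1.63% to 59.6% with vehicle, and an exact two-sided permutation test within antibodies gave p = 0.0414 over 63504 arrangements (adjusted over 5 library measures p = 0.169). Nuclear protein-coding genes held 20.6% ± 13.8 and 27.1% ± 10.9 of TPM (exact permutation p = 0.169). Combination libraries 1 and 4 stood apart: library 1 correlated with the other libraries at a median Spearman rho of 0.511 and had 8198 genes at 1 TPM or more, and library 4 held the 83.4% satellite-like share and 6659 genes. No sequencing batch is given in the labels, and library 1 of the combination and library 5 of GYY_IgG carry sample numbers that lie apart from the rest. The tumours expressed epithelial markers, with all 9 of a marker list tested and summed levels of 407 to 1547 TPM with GYY4137 and 859.6 to 1569 TPM with vehicle. Smarcb1, the chromatin remodelling gene whose loss typifies human renal medullary carcinoma, was present at 35.2 to 106 TPM with GYY4137 and 47.0 to 109 TPM with vehicle (log2 difference 0.003, SE 0.19, limma adjusted p = 0.995, with opposite signs in the arms, and 0.22 without combination libraries 1 and 4). Bulk RNA mixes tumour and host cells, so fewer cells of a type and less RNA per cell cannot be told apart.

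**Figure D1:**
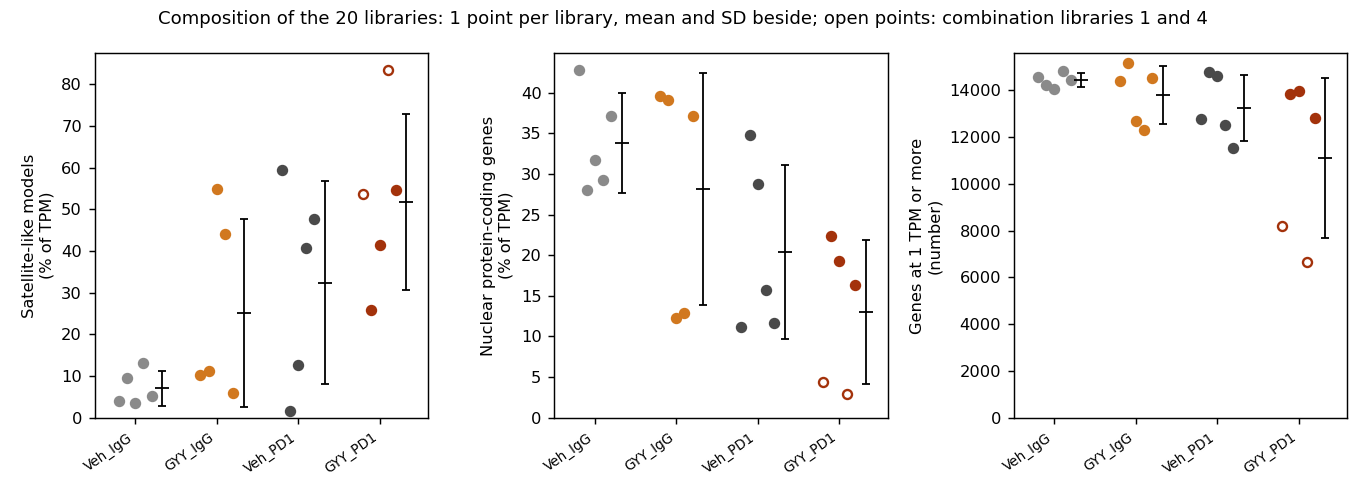
Share of TPM held by the 13 satellite-like gene models, share held by nuclear protein-coding genes, and number of genes at 1 TPM or more, with 1 point per library, the group mean and SD beside the points, and combination libraries 1 and 4 as open points. The satellite-like share spans 5.86% to 83.4% in the 10 GYY4137 tumours and 1.63% to 59.6% in the 10 vehicle tumours.

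No gene passed the test of GYY4137 against vehicle over both antibodies. limma called 0 of 11673 genes in either direction at an adjusted p under 0.05 (0.0% of genes each way), and the smallest adjusted p was 0.462. At an unadjusted p under 0.05, 368 genes had a higher mean with GYY4137 (3.15%) and 320 a lower mean (2.74%), so the verbs below describe means and not calls. The arms each gave 0 calls as well. Under IgG, 50 genes were higher (0.428%) and 16 lower (0.137%) at an unadjusted p under 0.05, and under anti-PD1 439 were higher (3.76%) and 797 lower (6.83%). The test of whether the difference itself differed between antibodies also called 0 genes, with 63 (0.54%) and 110 (0.942%) at an unadjusted p under 0.05. Without combination libraries 1 and 4 the count stayed at 0, with 818 genes higher (7.01%) and 416 lower (3.56%) at an unadjusted p under 0.05 and a smallest adjusted p of 0.119. Leaving out combination library 1 alone moved the number of genes at an unadjusted p under 0.05 from 688 to 1571.

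The direction of single genes depended on combination library 1 for much of the transcriptome. Without library 1 alone, 6810 genes had a higher mean over both antibodies and the median difference was 0.04. Without library 4 alone these were 3924 and -0.11, beside 4189 and -0.09 with all libraries. With all libraries, 2432 genes had a higher mean in both arms (20.8%) and 3675 a lower mean in both (31.5%), and without combination libraries 1 and 4 these were 4708 (40.3%) and 2654 (22.7%). The median over all tested genes was -0.09 with all libraries, 0.03 under IgG and -0.22 under anti-PD1, and 0.04 without the 2 libraries. Across the 11673 genes, the differences of the 2 arms had a Pearson correlation of 0.302 and a Spearman correlation of 0.281. Genes of the same library share its composition and are not independent replicates. Of the 368 genes higher at an unadjusted p under 0.05, 366 (3.14% of tested genes) were higher in both arms, and of the 320 lower ones 316 (2.71%) were lower in both. The difference over both antibodies is the mean of the 2 arm differences, so a small p favours genes with the same sign in both. These counts therefore do not measure agreement between the arms.

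**Figure D2:**
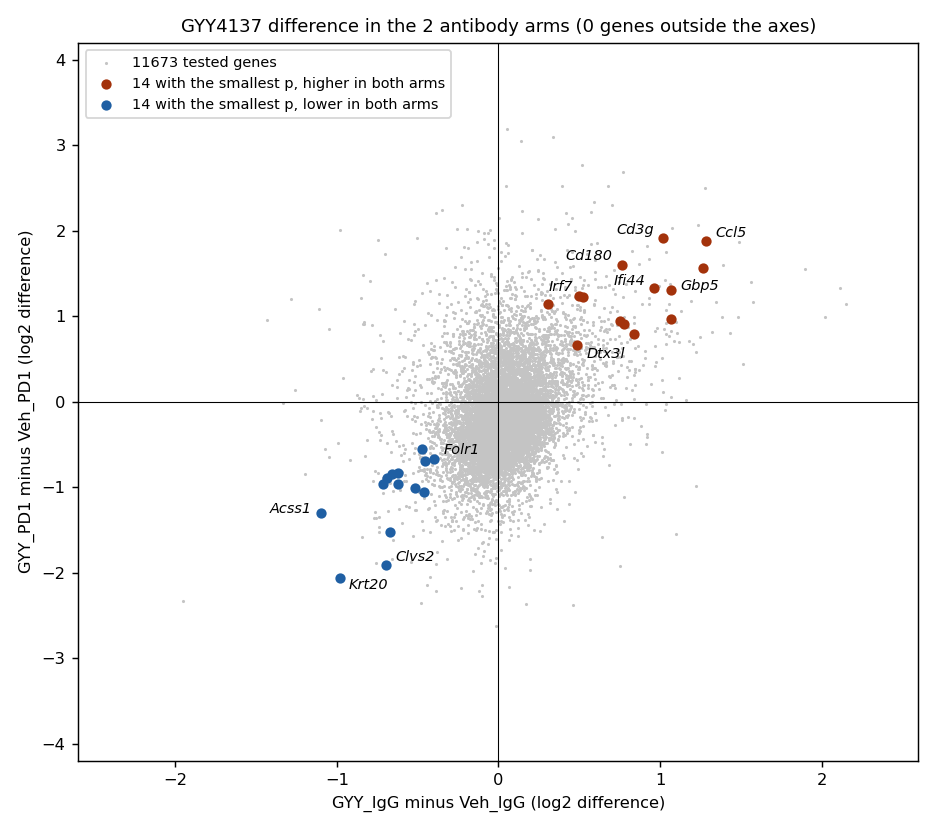
Each tested gene by its log2 difference under IgG (x axis) and under anti-PD1 (y axis), GYY4137 minus vehicle, with the 14 genes of smallest p that are higher in both arms in red and the 14 that are lower in both arms in blue. The coloured genes lie in the upper right and lower left corners by the rule that chose them, and the grey cloud has a median of 0.03 on the x axis and -0.22 on the y axis.

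The 14 higher genes of smallest p were Cd180, Cd3g, Irf7, Gbp5, Dtx3l, Ifi44, Sp110, Ccl5, Ccdc88b, Ciita, Cxcl10, Irgm1, Evi2a and Oasl2. The promoter windows of RefSeq (GRCm38.p6, 250 bases before to 50 after a start site) were searched on both strands, overlapping matches included, for TTCNNNGAA (GAS) and for GAAA, any 2 bases and GAAA again (ISRE), to show what letters lie upstream of the genes that head the ranking. Windows were matched for 11 of the 14 genes, 13 windows in all. ISRE occurred in 3 of these windows (23.1%), against 3.14% of the 11849 windows of tested genes and 3.44% of all 32851 windows. GAS occurred in 1 (7.69%), against 6.95% and 8.3%. The windows of the other matched genes, Irf7, Ifi44 and Oasl2 among them, held neither motif. The 3 windows with a match are printed 5′ to 3′ on the strand of the gene, with capitals for the matched motifs.
Gbp5 (chr3:142496684-142496983, plus strand): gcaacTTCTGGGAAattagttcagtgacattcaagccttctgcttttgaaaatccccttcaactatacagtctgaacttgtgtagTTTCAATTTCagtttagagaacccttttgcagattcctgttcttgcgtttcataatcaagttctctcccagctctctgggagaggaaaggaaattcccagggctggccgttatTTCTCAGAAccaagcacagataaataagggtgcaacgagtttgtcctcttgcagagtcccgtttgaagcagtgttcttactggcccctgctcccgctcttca
Cxcl10 (chr5:92348840-92349139, minus strand): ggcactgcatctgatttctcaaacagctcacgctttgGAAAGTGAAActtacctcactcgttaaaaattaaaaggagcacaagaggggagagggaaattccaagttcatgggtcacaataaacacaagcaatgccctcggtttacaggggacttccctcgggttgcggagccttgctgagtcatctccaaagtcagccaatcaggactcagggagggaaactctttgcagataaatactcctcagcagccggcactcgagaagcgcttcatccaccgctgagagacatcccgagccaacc
Irgm1 (chr11:48871371-48871670, minus strand): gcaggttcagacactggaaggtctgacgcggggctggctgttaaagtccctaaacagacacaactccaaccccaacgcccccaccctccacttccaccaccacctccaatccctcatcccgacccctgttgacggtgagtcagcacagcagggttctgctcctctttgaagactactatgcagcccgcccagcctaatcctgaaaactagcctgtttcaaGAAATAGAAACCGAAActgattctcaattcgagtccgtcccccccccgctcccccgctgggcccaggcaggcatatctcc
Gbp5 held a GAS match starting 245 and another 52 bases before the start site, and an ISRE match starting 165 bases before it. In Cxcl10 the ISRE match began 213 bases before the start site, and in Irgm1 overlapping ISRE matches began 30 and 24 bases before it. In the windows of the lower genes, 12 windows of 11 genes, GAS occurred in 1 (8.33%, Prodh) and ISRE in 0. A match describes the letters of a window and not a bound site.

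Cd180, a Toll-like receptor relative on B cells, macrophages and dendritic cells, was the only gene whose 10 GYY4137 values all lay above its 10 vehicle values (1 gene, 0.00857% of those tested). In GYY_IgG the level was 14.8, 13.98, 15.6, 20.1 and 12.3 TPM in libraries 1 to 5, and in GYY_PD1 61.0, 15.7, 23.9, 17.8 and 16.5 TPM. The vehicle libraries ranged from 3.88 to 11.7 TPM (median 7.97), so the lowest GYY4137 tumour, at 12.3 TPM, exceeded the highest vehicle tumour, at 11.7 TPM. The log2 difference was 1.18 (SE 0.24, limma adjusted p = 0.462), 0.76 under IgG and 1.60 under anti-PD1. Without combination libraries 1 and 4 it was 0.98 (SE 0.18, limma adjusted p = 0.119). Cd180 overlaps Mast4 on the opposite strand, and whether counting used strand is not given in the sources used here.

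Cd3g encodes the gamma chain of the CD3 complex of T cells. It lay at 2.30 to 13.7 TPM (median 4.35) with GYY4137 and 0 to 6.398 TPM (median 1.27) with vehicle, where 1 Veh_PD1 library was listed at 0. All 10 GYY4137 tumours exceeded the vehicle median and 4 exceeded every vehicle tumour, so the groups overlapped. The log2 difference was 1.47 (SE 0.32, limma adjusted p = 0.585). Ccl5, a chemokine that draws T cells and monocytes, lay at 5.80 to 36.0 TPM (median 23.9) with GYY4137 and 0.586 to 31.1 TPM (median 5.38) with vehicle, with a log2 difference of 1.58 (SE 0.40, limma adjusted p = 0.645). Among vehicle tumours, Veh_PD1 library 1 reached the level of the higher GYY4137 tumours. With the satellite-like share as a covariate the Ccl5 difference was 0.92 and that of Cd3g 1.52.

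Irf7, the transcription factor that amplifies type I interferon, lay at 53.4 to 139 TPM (median 81.2) with GYY4137 and 25.0 to 66.2 TPM (median 47.2) with vehicle. Within each antibody the 5 GYY4137 libraries exceeded the 5 vehicle libraries, a pattern that Irf7 shared among higher genes with Cd180 (2 genes, 0.0171%). The log2 difference was 0.87 (SE 0.19, limma adjusted p = 0.585), 0.52 under IgG and 1.23 under anti-PD1. Ifi44, an interferon-induced gene, ranged over 28.1 to 86.2 TPM (median 48.8) with GYY4137 and 5.41 to 47.8 TPM (median 25.7) with vehicle, and 6 GYY4137 tumours exceeded every vehicle tumour (log2 difference 1.14, SE 0.28). Oasl2, a relative of the antiviral oligoadenylate synthetases, had a log2 difference of 0.85 (SE 0.23). Irf7 overlaps Phrf1 on the opposite strand.

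Among genes that interferon gamma induces, Gbp5, a GTPase that acts against intracellular microbes, lay at 11.1 to 39.1 TPM (median 14.6) with GYY4137 and 2.24 to 21.3 TPM (median 6.46) with vehicle. Under IgG every GYY4137 value exceeded every vehicle value (background 0.857%), and under anti-PD1 the groups overlapped (log2 difference over both 1.19, SE 0.28, limma adjusted p = 0.645). Cxcl10, a chemokine for activated T cells, lay at 13.8 to 67.9 TPM (median 27.6) and 2.41 to 38.2 TPM (median 9.28), and only 2 GYY4137 tumours exceeded the highest vehicle tumour (log2 difference 1.42, SE 0.37). The vehicle tumours were themselves spread: Veh_PD1 libraries 1 and 4 reached 38.2 and 30.5 TPM. Ciita, the coactivator that turns on MHC class II transcription, lay at 4.83 to 16.9 TPM (median 9.29) with GYY4137 and 1.67 to 13.8 TPM (median 3.13) with vehicle (log2 difference 1.02, SE 0.26), again with Veh_PD1 libraries 1 and 4 the highest among vehicle tumours, at 13.8 and 11.6 TPM. Irgm1, a GTPase of the same response, had medians of 86.0 and 50.4 TPM and a log2 difference of 0.82 (SE 0.22). Like Gbp5, Irgm1 was higher without overlap under IgG and overlapped under anti-PD1. Interaction tests of these 4 genes gave limma adjusted p from 0.87 to 0.967.

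**Figure D3:**
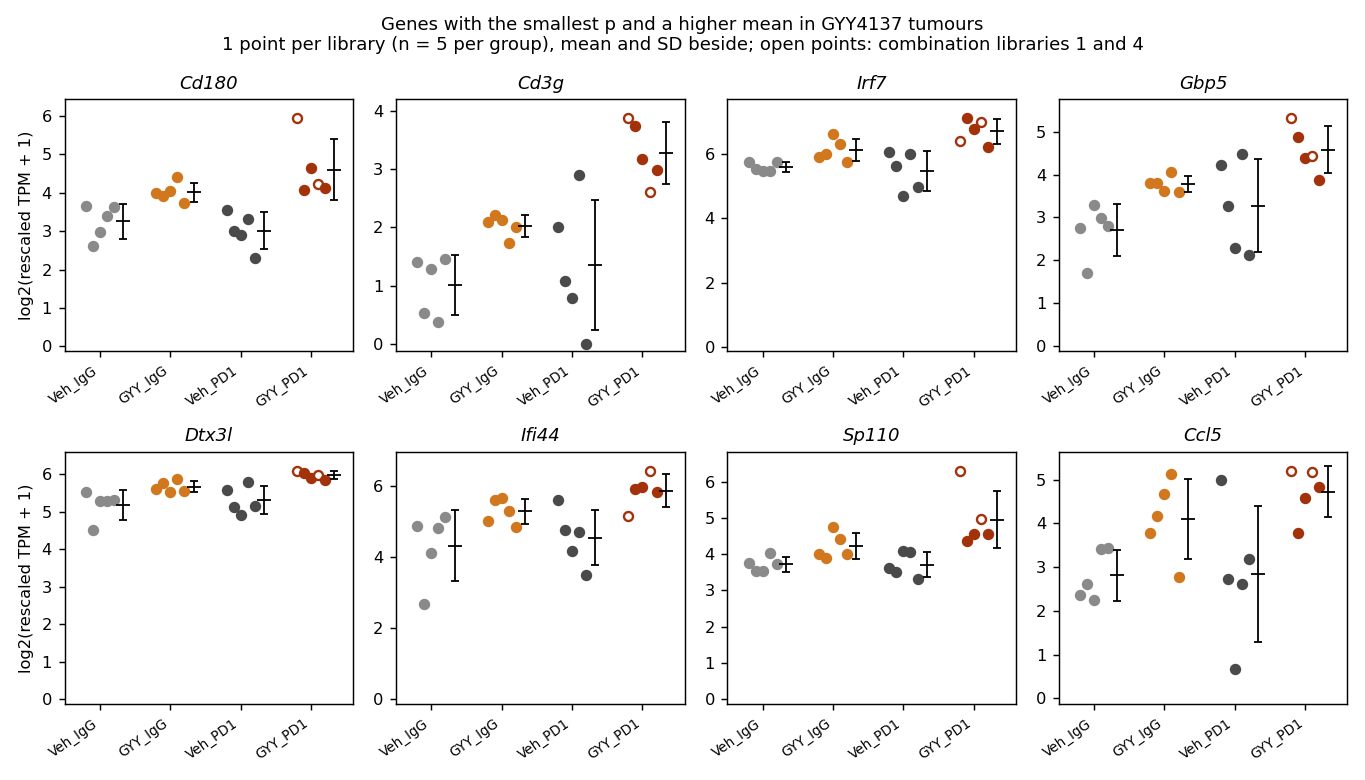
Levels of the 8 genes of smallest p with a higher mean in GYY4137 tumours, as log2(rescaled TPM + 1), with 1 point per library, the mean and SD of 5 libraries beside each group, and combination libraries 1 and 4 as open points. Cd180 values in GYY4137 tumours, from 12.3 TPM upward, lie above all vehicle values, while Ccl5 and Gbp5 overlap with Veh_PD1 tumours.

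Of the remaining higher genes, Dtx3l, a ubiquitin ligase that works with Parp9, had a log2 difference of 0.57 (SE 0.14), with 45.3 to 67.6 TPM (median 57.4) against 21.8 to 54.8 TPM (median 38.0). Sp110, an interferon-induced nuclear body protein, had 0.86 (SE 0.22) and 0.62 without combination libraries 1 and 4, of which library 1 held its highest level, 77.8 TPM. Evi2a, a membrane protein gene inside an intron of Nf1, had 0.73, with 0.31 under IgG and 1.14 under anti-PD1. Without combination libraries 1 and 4 it had 0.55. Evi2a overlaps Evi2 on the same strand, so its reads could be divided with that model. Ccdc88b, a coiled-coil protein of immune cells, had 0.84. Dtx3l, Sp110, Ciita and Cxcl10 overlap other gene models on the opposite strand. Over the 14 higher genes limma adjusted p ran from 0.462 to 0.645. A total of all protein-coding genes keeps satellite-like models and puts the median of all genes at -0.81. With that total the signs of Irf7, Dtx3l, Sp110, Irgm1, Evi2a and Oasl2 turned, to between -0.29 and -0.0097. On the deposited log2 scale, which also keeps these models, only Dtx3l of these 6 turned (-0.0822). TPM are relative to a total on every scale, so none of the scales gives absolute amounts.

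The interferon gamma list of 20 genes had 18 tested members, of which 16 had a higher and 2 a lower mean with GYY4137, against 4189 higher and 7484 lower of all 11673. At an unadjusted p under 0.05, 14 were higher, beside 3.15% of all tested genes, and 0 lower, and 0 passed the adjusted threshold. The median difference was 0.88, beside -0.09 over all genes, 0.94 under IgG and 0.81 under anti-PD1. It was 0.0035 and 0.24 on the 2 scales that keep satellite-like models in the total, where the median of all genes was -0.81 and -0.77, and 0.96 without combination libraries 1 and 4. The largest were Iigp1 (1.73), Cxcl9 (1.65) and Cxcl10 (1.42), and the receptor chains Ifngr1 (-0.25) and Ifngr2 (-0.32) were the 2 members with a lower mean (-0.08 and -0.002 without combination libraries 1 and 4). The groups of 9 members did not overlap under IgG (background 0.857%) and of 0 under anti-PD1 (background 0.326%), where summed levels reached 1374 TPM in a vehicle tumour.

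The type I interferon list had 24 tested members of 25, with 21 higher and 3 lower means, and 12 higher and 0 lower at an unadjusted p under 0.05. Over all tested genes, 35.9% had a higher mean and 3.15% were higher at that threshold. The median difference of the list was 0.39, and -0.40 and -0.27 on the 2 scales that keep satellite-like models. Besides Ifi44, Irf7 and Oasl2, Zbp1, a sensor of Z-form nucleic acid, had 0.96 (SE 0.32) and Mx1, an antiviral GTPase, had 0.74. Isg15 (-0.11), Oas2 (-0.09) and Oas1a (-0.07) had lower means, of which Isg15 (0.09 under IgG and -0.30 under anti-PD1) and Oas2 (0.10 and -0.27) differed in sign between the arms. Without combination libraries 1 and 4, all 24 members had a higher mean, 17 of them at an unadjusted p under 0.05, with a median of 0.48. Without these libraries 60.4% of all tested genes had a higher mean and 7.01% were higher at that threshold. The library-weighted limma fit, which gave combination library 1 a weight of 0.0152 and the other libraries 0.386 to 3.36, called 7 genes at adjusted p = 0.0492, 5 higher and 2 lower, among them Batf2, Cd180, Parp14 and Zbp1 higher and Dpm3 and Nme2 lower. Batf2, a transcription factor of the interferon response, and Parp14, an ADP-ribosyltransferase, were chosen after their values were seen. Batf2 lay at 11.5 to 275 TPM (median 16.8) with GYY4137 and 4.54 to 29.6 TPM (median 6.60) with vehicle, and Parp14 at 17.2 to 53.3 TPM (median 38.6) and 16.2 to 35.4 TPM (median 24.3). For Batf2, 2 GYY4137 tumours exceeded the highest vehicle tumour and the other 8 lay within the vehicle range, with Veh_PD1 libraries 1 and 4 at 29.6 and 21.9 TPM. Without combination library 1 the weighted fit called 0 genes, with a smallest limma adjusted p of 0.055.

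Of 14 MHC class I genes, 11 had higher and 3 lower means, 4 of them higher at an unadjusted p under 0.05, with a median of 0.23 (-0.65 and -0.44 on the 2 scales that keep satellite-like models). Over all tested genes, 35.9% had a higher mean and 3.15% were higher at that threshold. The immunoproteasome subunit Psmb10 had a log2 difference of 0.66 (SE 0.20), the peptide transporter Tap1 0.32 (SE 0.14) and the trimming peptidase Erap1 0.69 (SE 0.29). Erap1 was at 313 TPM in combination library 1 and at 30.2 to 50.1 TPM in the other GYY4137 tumours, beside 23.8 to 37.4 TPM (median 30.1) with vehicle, and its difference without the 2 libraries was 0.43. Of 9 tested MHC class II genes, 8 had higher means with a median of 0.62 (-0.25 and -0.03 on those scales), and only Ciita had an unadjusted p under 0.05. H2-Ab1, the class II beta chain, ranged widely in both groups, over 50.6 to 406 TPM (median 228) and 45.2 to 389 TPM (median 109). Cd274, which encodes the PD1 ligand PD-L1, lay at 11.2 to 71.0 TPM (median 41.5) with GYY4137 and 19.9 to 52.8 TPM (median 25.8) with vehicle, with 0.65 under IgG and 0.05 under anti-PD1 (limma adjusted p over both 0.767), and over both 0.35 with all libraries and 0.56 without combination library 1. The checkpoint receptor Havcr2 had 0.55 (SE 0.25), and 7 of 12 checkpoint genes, Pdcd1 among them, were under the filter.

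Markers of immune cells were measured beside these genes, and their part in the differences was not tested. Of 12 T cell markers 5 passed the filter and all 5 had higher means, 3 at an unadjusted p under 0.05, with a median of 0.76. Over all tested genes, 35.9% had a higher mean and 3.15% were higher at that threshold. Cd3e had 0.76 (SE 0.32) and Cd4 0.91 (SE 0.35). Summed over the 11 of these markers in the table, levels were 31.3 to 715 TPM (median 53.7) with GYY4137 and 20.9 to 71.6 TPM (median 27.3) with vehicle, and the highest was 79.8 TPM without combination libraries 1 and 4. The 12 cytotoxic lymphocyte markers, which include Ifng itself, were all under the filter, with summed levels of 12 to 50.3 TPM (median 29.9) against 3.07 to 40.1 TPM (median 8.17), and 0 of them at 0 in every library. Of 10 macrophage markers 2 had higher and 8 lower means (35.9% of all tested genes were higher). With all libraries, 2 were higher and only 3 lower in both arms. Without combination libraries 1 and 4 the split was 6 and 4 (median 0.07, beside 60.4% higher over all genes). The macrophage median was -0.30 under IgG and 0.09 under anti-PD1, or 0.52 under anti-PD1 without the 2 libraries. Macrophage sums over all libraries were 1025 to 5133 TPM with GYY4137 and 1627 to 4261 TPM with vehicle. Of the monocyte markers, Ms4a4c had 1.02 (SE 0.36) and F13a1 -0.68 (SE 0.29). Itgax, an integrin of dendritic cells, had 0.61 (SE 0.25) and Ccr7, their homing receptor, 1.10 (SE 0.50), with 92.9 TPM in combination library 1 and 12.7 TPM in its highest vehicle tumour. Without combination library 1 the differences were 0.71 for Ccr7 and -0.42 for F13a1.

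**Figure D4:**
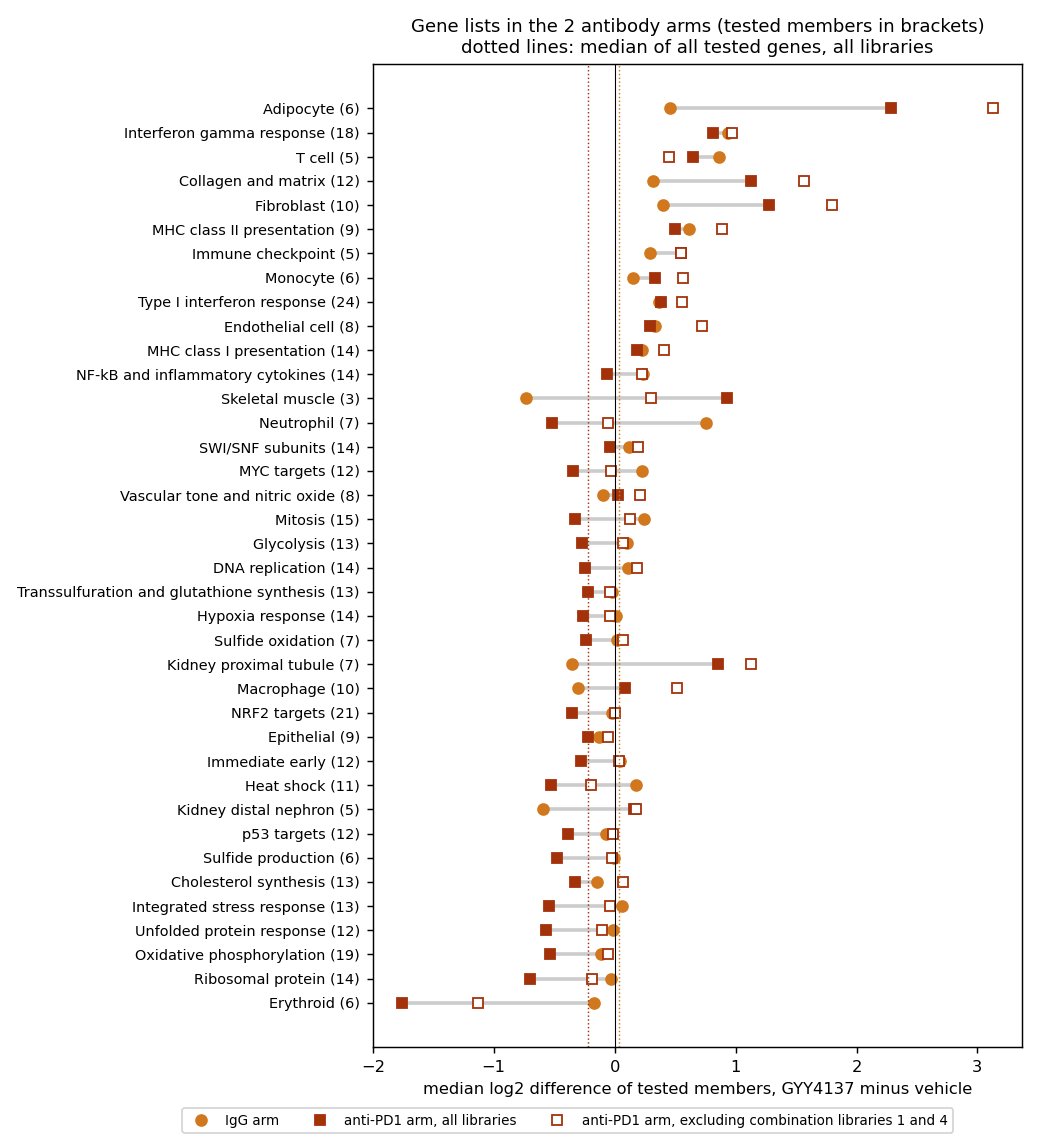
Median log2 difference (x axis, GYY4137 minus vehicle) of the tested members of each gene list with at least 3 of them, under IgG (circles), under anti-PD1 (filled squares) and under anti-PD1 without combination libraries 1 and 4 (open squares), with dotted lines at the medians of all tested genes, 0.03 and -0.22. The interferon gamma list has medians of 0.94 under IgG and 0.81 under anti-PD1, while the adipocyte and erythroid lists have larger differences under anti-PD1 than under IgG, a contrast that was not tested.

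The 14 lower genes of smallest p included metabolic enzymes and genes of epithelia: Acss1, Dpm3, Nme2, Krt20, Clvs2, Prodh, Tmem107, Folr1, Rab17, Gprc5c, Selenbp2, Sbsn, Arl4d and Tmem256. Acss1, the mitochondrial enzyme that turns acetate into acetyl-CoA, lay at 3.10 to 11.7 TPM (median 5.05) with GYY4137 and 8.30 to 24.7 TPM (median 14.8) with vehicle. All 10 GYY4137 tumours were under the vehicle median and 8 under the lowest vehicle tumour. The log2 difference was -1.20 (SE 0.23, limma adjusted p = 0.462), -1.10 under IgG, -1.31 under anti-PD1 and -1.18 without combination libraries 1 and 4. Dpm3, a subunit of the enzyme that makes dolichol phosphate mannose for glycosylation, lay at 24.7 to 89.1 TPM (median 71.5) and 77.6 to 129.8 TPM (median 105), with 9 GYY4137 tumours under the lowest vehicle tumour (log2 difference -0.79, SE 0.19). Nme2, a nucleoside diphosphate kinase, lay at 20.3 to 61.5 TPM (median 40.8) and 47.5 to 91.6 TPM (median 68.1) (log2 difference -0.72, SE 0.18), and it overlaps the model Gm20390 on the same strand, so its reads could be divided with that model.

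Krt20, a keratin of mature epithelial cells, had the largest difference of the 14, with 7.36 to 222 TPM (median 51.9) with GYY4137 and 78.4 to 271 TPM (median 146) with vehicle. Combination library 1 was the lowest at 7.36 TPM and GYY_IgG library 5 the highest GYY4137 tumour, inside the vehicle range (log2 difference -1.52, SE 0.39, and -1.14 without combination libraries 1 and 4). Clvs2, a lipid-binding protein of clathrin vesicles, was listed at 0 in combination library 1 and reached 8.04 TPM in the other GYY4137 tumours, beside 3.83 to 18.4 TPM (median 9.10) with vehicle. Under anti-PD1 the groups did not overlap for Clvs2, or for Pax8 and Prodh, named below (background 0.591%). Other epithelial genes included Folr1, the folate receptor of kidney tubules (-0.53, SE 0.15), Rab17, a trafficking GTPase of polarised cells (-0.57, SE 0.16), and Gprc5c, an orphan receptor (-0.51, SE 0.14). Pax8, the transcription factor of renal epithelium, had -0.55 (SE 0.17), with 50.6 to 151 TPM (median 113) against 122 to 212 TPM (median 162). As a list, 3 of 9 epithelial markers had higher and 6 lower means, with a median of -0.17 (-0.07 without combination libraries 1 and 4), beside 4189 higher and 7484 lower of all tested genes. Prodh, the mitochondrial enzyme that starts proline breakdown, had -0.75 (SE 0.20), and Selenbp2 -0.76 (SE 0.21). Selenbp2 has a near-identical paralog in Selenbp1, so reads of the pair could be divided. Of the other 4, Tmem107, a protein of the ciliary transition zone, had -0.84 (SE 0.22), Sbsn, an epidermal secreted protein, -0.75 (SE 0.21), Arl4d, a small GTPase, -1.10 (SE 0.31) and Tmem256 -0.79 (SE 0.23). Over the 14 lower genes limma adjusted p ran from 0.462 to 0.695.

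**Figure D5:**
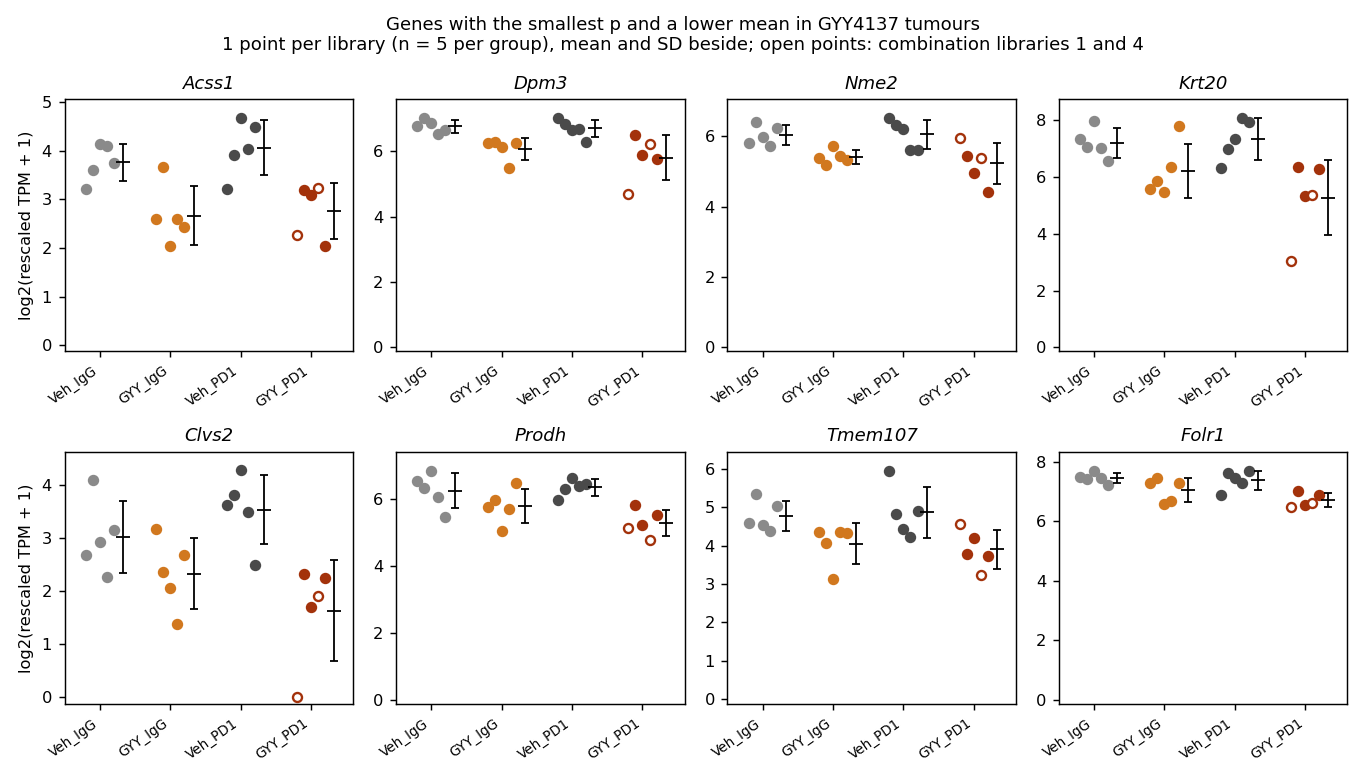
Levels of the 8 genes of smallest p with a lower mean in GYY4137 tumours, as log2(rescaled TPM + 1), with 1 point per library, the mean and SD of 5 libraries beside each group, and combination libraries 1 and 4 as open points. Acss1 lies under the lowest vehicle tumour in 8 of 10 GYY4137 tumours, and the lowest Krt20 and Clvs2 values come from combination library 1.

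Cox6a1, a subunit of cytochrome c oxidase, the respiratory enzyme that sulfide inhibits, was the only gene whose 10 GYY4137 values all lay below its 10 vehicle values (1 gene, 0.00857%), and it was singled out after its values were seen. It lay at 499, 489.6, 531, 357 and 527 TPM in GYY_IgG libraries 1 to 5, at 32.6, 537, 414, 311 and 453 TPM in GYY_PD1 libraries 1 to 5, and at 538 to 697 TPM (median 583) with vehicle. The gap between the groups was narrow, 537 TPM below 538 TPM. The log2 difference was -0.80 (SE 0.36, limma adjusted p = 0.767) and -0.35 (SE 0.09, limma adjusted p = 0.188) without combination libraries 1 and 4. Maf1, a repressor of RNA polymerase III, was lower without overlap within each antibody, also noticed after its values were seen. Its levels were 24.0 to 132 TPM (median 118) with GYY4137 and 119 to 167 TPM (median 146) with vehicle. Maf1 had a log2 difference of -0.56 (SE 0.22, limma adjusted p = 0.767), -0.36 without combination library 1 and -0.28 without libraries 1 and 4, and Cox6a1 and Maf1 were the 2 genes of that kind (0.0171%).

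The oxidative phosphorylation list, which does not hold Cox6a1, had all 19 members lower on average, 4 of them at an unadjusted p under 0.05. Over all tested genes, 7484 of 11673 were lower, and 2.74% were lower at that threshold. The list median was -0.33 beside -0.09 over all genes, -0.11 under IgG and -0.53 under anti-PD1, and lower than 0 on every scale tried. Without combination libraries 1 and 4, 15 members were lower and 4 higher, beside 60.4% higher over all genes. The list median was then -0.13 beside 0.04 over all genes. Cox5a, another oxidase subunit, lay at 64.1 to 238 TPM (median 146) with GYY4137 and 151 to 235 TPM (median 192) with vehicle, and under IgG the groups did not overlap (background 0.283%). Its log2 difference was -0.47 (SE 0.17) and -0.43 (SE 0.08, limma adjusted p = 0.119) without the 2 libraries. Cox7a2 had -0.63 (SE 0.26), -0.40 without combination library 1 and -0.32 without libraries 1 and 4. All 14 ribosomal protein genes also had lower means (median -0.36, and -0.10 without the 2 libraries), 0 at an unadjusted p under 0.05.

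The enzymes of sulfide itself had no common direction of their means. Cbs, which makes sulfide from homocysteine and cysteine, was low and spread, at 17.6, 13.3, 9.18, 3.45 and 1.35 TPM in GYY_IgG libraries 1 to 5, at 8.67, 2.09, 2.67, 25.1 and 6.23 TPM in GYY_PD1, and at 1.05 to 10.2 TPM (median 2.63) with vehicle. The log2 difference was 0.91 (SE 0.42, limma adjusted p = 0.767), and 0.45 with the satellite-like share as a covariate. Without combination libraries 1 and 4 it was 0.62 over both antibodies and -0.05 under anti-PD1, so the arms then differed in sign. Mpst, the mercaptopyruvate sulfurtransferase, lay at 5.18 to 56.5 TPM (median 47.3) with GYY4137 and 32.5 to 82.8 TPM (median 62.8) with vehicle. All 10 GYY4137 values of Mpst were under the vehicle median, with 5.18 TPM in combination library 1 (log2 difference -0.69, SE 0.30, and -0.30 without the 2 libraries). Cth, the cystathionine lyase, had -0.41 (SE 0.27), with -0.06 under IgG, -0.77 under anti-PD1 and -0.11 without the 2 libraries. Under anti-PD1 its groups did not overlap, at 12.7 to 87.5 TPM with GYY4137 and 89.6 to 102 TPM with vehicle (background 0.591%). Of the 6 production genes, 2 had higher and 4 lower means (median -0.21), and without the 2 libraries 3 and 3 (median -0.03), beside 35.9% and 60.4% higher over all tested genes.

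Of 7 genes of the sulfide oxidation list, 2 had higher and 5 lower means, with a median of -0.11 (0.05 without combination libraries 1 and 4, and -0.63 and -0.71 on the scales that keep satellite-like models). Over all tested genes, 35.9% had a higher mean. Sqor lay at 7.94 to 85.6 TPM (median 54.1) with GYY4137 and 31.3 to 53.6 TPM (median 36.1) with vehicle, and 5 GYY4137 tumours exceeded the highest vehicle tumour while combination library 1 lay below the lowest. Its log2 difference was 0.26 (SE 0.29, limma adjusted p = 0.791) and 0.53 (SE 0.16) without the 2 libraries. Ethe1, the persulfide dioxygenase of the next step, had -0.61 (SE 0.24, and -0.40 without the 2 libraries), with 7 GYY4137 tumours under the lowest vehicle tumour and 1 above the highest. Selenbp1, a methanethiol oxidase that yields sulfide, had -0.62 (SE 0.31), -0.33 without combination library 1 and -0.37 without libraries 1 and 4. Txnrd2, a mitochondrial thioredoxin reductase, was the other higher member (0.24). With Selenbp1 and Txnrd2 the list is broader than the enzymes that oxidise sulfide. Csad, which makes the taurine precursor hypotaurine from an oxidised form of cysteine, had 0.72 (SE 0.28) and 0.39 without the 2 libraries.

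Lists of stress genes are given beside all tested genes, of which 35.9% had a higher mean with all libraries and 60.4% without combination libraries 1 and 4. Of 21 targets of NRF2, the factor that senses modified cysteines on Keap1, 4 had higher and 17 lower means (median -0.15), and without combination libraries 1 and 4 the split was 12 and 9 (median 0.08). Among them Gstm1 had -0.54 (SE 0.25), or -0.28 without the 2 libraries, and Nqo1 -0.32 (SE 0.23), or -0.07 without the 2 libraries. The integrated stress response had 2 higher and 11 lower of 13, and 8 and 5 without the 2 libraries. Its median was 0.06 under IgG and -0.54 under anti-PD1, with 1 member higher and 4 lower in both arms. The unfolded protein response had 2 higher and 10 lower of 12, and 4 and 8 without them, with Herpud1, an endoplasmic reticulum degradation factor, at -0.71 (SE 0.22). Ddit4, a hypoxia-induced inhibitor of mTOR, lay at 49.0 to 787 TPM (median 591) with GYY4137 and 418 to 1532 TPM (median 822) with vehicle (log2 difference -0.84, SE 0.37, and -0.48 without combination library 1, the lowest). Mitosis genes had 6 higher and 9 lower of 15, and 14 and 1 without the 2 libraries (median 0.17). With all libraries the mitosis median was 0.25 under IgG and -0.33 under anti-PD1, with 1 member higher and 0 lower in both arms.

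Genes of vessels, stroma and blood were spread between single libraries. Edn1, which encodes the constrictor endothelin 1, lay at 0 to 12.3 TPM (median 4.06) with GYY4137 and 4.95 to 17.2 TPM (median 11.3) with vehicle (log2 difference -1.13, SE 0.38, limma adjusted p = 0.767), while its receptor Ednra had 0.82 (SE 0.29), with 2.22 to 21.5 TPM (median 5.59) against 1.07 to 5.42 TPM (median 2.88). All 12 collagen and matrix genes had higher means, 0 at an unadjusted p under 0.05, with a median of 0.71 that was -0.06 and 0.05 on the scales that keep satellite-like models. All 10 fibroblast markers (median 0.70) and all 8 tested endothelial markers (median 0.29, and -0.45 and -0.30 on those scales) had higher means too. Over all tested genes, 35.9% had a higher mean with all libraries and 60.4% without combination libraries 1 and 4. Col1a1, the main fibrillar collagen, reached 714 TPM in combination library 3 and 520.0 TPM in GYY_IgG library 4, with medians of 76.1 TPM with GYY4137 and 15.7 TPM with vehicle. All 6 tested adipocyte markers of 9 had higher means (median 1.43), and Adipoq stood at 424 TPM in combination library 3 and at 0 to 11.5 TPM in the other GYY4137 tumours (log2 difference 1.60, and 0.94 without that library). The summed adipocyte markers reached 4861 TPM with GYY4137 and 319.8 TPM with vehicle. Erythroid genes were lower in 6 of 6 (median -0.97, and -0.58 without combination libraries 1 and 4), with Hba-a2 at 0 to 91.9 TPM (median 37.2) against 24.1 to 143 TPM (median 62.5) (log2 difference -1.42, and -0.80 without the 2 libraries). Hba-a2 has a near-identical copy in Hba-a1, and the part of blood, fat or stroma in the samples was not tested.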

How the data were processed

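RNA of 20 mouse kidney tumours was analysed from the deposited table of log2 TPM, 34234 genes in 20 columns, in which 0 TPM is written as -8.88. Per the submitters' processing notes, cutadapt, fastp, Salmon 0.14.1, HTSeq 0.11.0 and mm10 were used. Which tool made the log2 TPM that the authors deposited is not given in the sources used here. TPM keep no read number, so depth is unknown. The titles call the libraries biological replicates.

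Values were raised back to TPM and matched by name to GENCODE M21 (33928 names found). They were rescaled to the 18043 nuclear protein-coding genes, leaving out mitochondrial genes, Gm-numbered models and 1040 olfactory and vomeronasal receptors, and tested as log2(value + 1) for 11673 genes with limma 3.58.1 in R 4.3.3 (trended eBayes, antibody as covariate, 17 residual degrees of freedom for the additive fit and 16 for the 4 group means). The threshold was a Benjamini-Hochberg adjusted p under 0.05. The fit was run on simulated independent normal values, whose spread was taken without combination libraries 1 and 4. That run checks the code and does not show how the fit behaves with those libraries. Satellite-like models were 13 Gm-named models with repeats of 225 to 240 bases, at least 50% identity, at least 400 bases and a mean of at least 10 TPM.

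Named genes were the 14 higher and 14 lower genes of smallest p with the same sign in both arms and a mean of at least 5 rescaled TPM in at least 1 group, without provisional names, pseudogenes and receptor segments, up to 4 members of a list with the smallest p, and Smarcb1, Cbs, Cth, Mpst, Sqor and Cd274. Cox6a1, Maf1, Parp14 and Batf2, and list members named as extremes of their list (Iigp1, Cxcl9, Ifngr1, Ifngr2, Mx1, Isg15, Oas1a and Oas2), were chosen after their values were seen. The comparison, the 42 lists and the rules were chosen with earlier results of these data known.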

Additional observations from a re-analysis of the deposited data

Results flagged for a closer look

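Of the 148 groups of 5 libraries that were examined, 11 had a highest or lowest library separated from the others by more than Dixon's 95% limit. Chance gives about 1 in 20. Not every gene named above was covered: Cox6a1 and Erap1, with extreme values in combination library 1, were not, so its count here is incomplete. Values are log2(rescaled TPM + 1). Combination library 1 was the separated library in 5 of them: Clvs2 at 0, Arl4d at 2.668, Tmem256 at 4.417, Cth at 3.773 and Sqor at 3.161, each the lowest of its group. Veh_IgG library 2 was lowest for Dtx3l (4.509) and Irgm1 (4.774). Evi2a in Veh_PD1 library 5 (3.379), Dpm3 in GYY_IgG library 4 (5.485) and Tmem107 in GYY_IgG library 3 (3.141) were also low, and Cth in Veh_PD1 library 4 (6.502) stood apart from its group.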

How the results depend on the processing

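Across 40 alternatives, of which 4 were chosen after seeing the data, limma called 0 genes over both antibodies in all but 2 settings: library weights called 7 genes (0 without combination library 1), and a total of all protein-coding genes called 2, Stfa2 and Sult1d1, both lower and named after their values were seen. That total also gave 2 calls under anti-PD1. It keeps the satellite-like models, and the median of all genes was -0.81 there and -0.77 on the deposited log2 scale. Leaving out each library in turn gave 0 to 0 calls in each comparison. Without the 2 libraries whose sample numbers lie apart there were 0 calls and a smallest adjusted p of 0.0633. With the satellite-like share as a covariate, 258 genes had an unadjusted p under 0.05 and the smallest adjusted p was 0.992. With the replicate block there were 0 calls and 716 genes at an unadjusted p under 0.05. Deviations of same-numbered libraries had a median correlation of 0.046, beside 0.006 for other numbers, and a highest of 0.368. Of 30 same-numbered pairs 12 were over 0.1, and 4 of 20 libraries were closest to their own number. Weak correlations cannot exclude a pairing by number, and the main fit assumed none. Gene differences with the opposite sign under the total of all protein-coding genes were Irf7 -0.0253, Dtx3l -0.29, Sp110 -0.0097, Irgm1 -0.0639, Evi2a -0.15, Oasl2 -0.0324, Smarcb1 -0.81, Sqor -0.50, Cd274 -0.44, Psmb10 -0.21, Tap1 -0.57, Erap1 -0.16, H2-Ab1 -0.25, Havcr2 -0.20, Csad -0.14, Itgax -0.13 and Parp14 -0.24. On the deposited log2 scale they were Dtx3l -0.0822, Smarcb1 -0.67, Sqor -0.41, Cd274 -0.32, Tap1 -0.35, H2-Ab1 -0.0261, Havcr2 -0.0536, Itgax -0.0036 and Parp14 -0.0874. Smarcb1 ran from -0.080 to 0.104 when single libraries were left out. Depth is unknown, so no counting error is given.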
